A study of Rattus norvegicus with 3 samples.

Results

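Muscle that had received a Plin5 plasmid was compared with muscle that had received a Plin2 plasmid. Each side was 1 array of 3 in the series, and the members were the 10879 genes kept out of 14506 with a probe set of their own. A gene was represented by its brightest probe set, and was kept when its mean over the 3 arrays reached the 25th percentile of all genes, 5.34 log2 units, called the dim level here. All animals were male Wistar rats of 11 weeks that ate a diet with 45% of its energy from fat for 3 weeks. After 2 weeks of that diet, 150 µg of plasmid was electroporated into the tibialis anterior, a fast muscle at the front of the lower leg, and the muscle was taken 8 days later. The Plin5 group (OXPAT in the sample titles) received pcDNA3.1-CMV-Plin5, the Plin2 group (ADRP) received pENTR-CMV-Plin2, and the control group received pcDNA3.1-empty vector. The inserts were driven by the CMV promoter, which is active in many cell types, and the species of the cDNAs is not stated. The Plin2 plasmid alone had the pENTR backbone, so insert and backbone cannot be told apart in any difference below. Each array carried RNA pooled from 6 rats. With 1 array a side, no spread between animals or arrays could be measured and no test was possible, so each difference below is a description of these arrays. The contralateral leg, which was sham-electroporated, was not analysed here.

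Perilipins are proteins that sit on the surface of lipid droplets and regulate the access of lipases to the stored triglyceride. PLIN2 is found on droplets in most tissues. PLIN5 is most abundant in oxidative tissues such as heart, slow muscle and fasted liver, where droplets lie against mitochondria. Skeletal muscle that takes up plasmid DNA under electric pulses is injured and repaired to some degree, and foreign DNA can be sensed by innate immune receptors.

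The arrays had median levels over the kept genes of 8.14 (empty vector), 8.19 (Plin2) and 8.10 (Plin5) log2 units. All 13 kept genes of a skeletal muscle check list, such as those of titin and fast troponin I, were bright on every array, with a median level of 13.4 on the empty vector array. Below, 3 levels given together are in the order empty vector, Plin2 and Plin5, in log2 units as deposited. A difference is the Plin5 array minus the Plin2 array in log2 units unless another pair is named, so that 1.5-fold is 0.585.

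The introduced genes came first. Plin5 stood at 7.52, 6.79 and 8.30, a difference of 1.51. Its level was highest on its own array, and lowest on the Plin2 array rather than on the empty vector array. Plin2 stood at 9.99, 10.71 and 10.08, a difference of −0.62. That level too was highest on its own array, while the other arrays lay close together. Plin1 and Plin3 had equal values on all 3 arrays. How well the rat probes detect the plasmid transcripts is not known.

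Of the 10879 genes, 782 were at least 1.5-fold higher on the Plin5 array (7.19%) and 1225 were at least 1.5-fold lower (11.3%). Centring the arrays on their median genes moved every difference by 0.09 and gave 1012 higher and 1032 lower, so the lower side held more genes in both settings but by a smaller margin after centring. The lower side reached further. At 2-fold or more there were 215 genes higher (1.98%) and 562 lower (5.17%), at 4-fold 8 and 56, and at 8-fold 0 and 8. The median gene did not differ (0.00), 2941 genes (27%) were exactly equal on the Plin2 and Plin5 arrays, and the 5th and 95th percentiles of the difference were −1.02 and 0.73. Brightness was unevenly spread over the directions. When kept genes were divided into 4 equal groups by level, in the dimmest group 1.51% were higher and 5.66% lower by 1.5-fold, and in the brightest group 14.6% were higher and 11.3% lower. Equal values fell from 54.0% of the dimmest group to 9.19% of the brightest.

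The empty vector array was used to say which side of each difference departed from the control. Against it, the Plin5 array had 24 genes higher (0.221%) and 154 lower (1.42%) by 1.5-fold, and the Plin2 array had 962 higher (8.84%) and 631 lower (5.8%). These comparisons share the empty vector array, so a stray value on it would move both, in the same direction. Among the 782 genes higher on Plin5 than on Plin2, only the Plin2 array departed from the empty vector by 1.5-fold in 603 (77.1%), only the Plin5 array in 2 (0.256%), both arrays in opposite directions in 3, and neither array alone in 174 (22.3%). Among the 1225 lower genes, the numbers were 777 (63.4%) for Plin2 alone, 26 (2.12%) for Plin5 alone, 127 (10.4%) for both in opposite directions, 11 for both in the same direction, and 284 (23.2%) for neither. Of the Plin2 and Plin5 arrays, Plin2 was the one further from the empty vector in 774 of the 782 higher genes and in 1131 of the 1225 lower ones. Its part of the gap had a median of 86.5% (quartiles 79.9% and 93.2%) in the higher genes and 74.8% (64.3% and 86.9%) in the lower genes. The empty vector level lay between the other levels in 691 of the higher and 1071 of the lower genes.

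**Figure D1:**
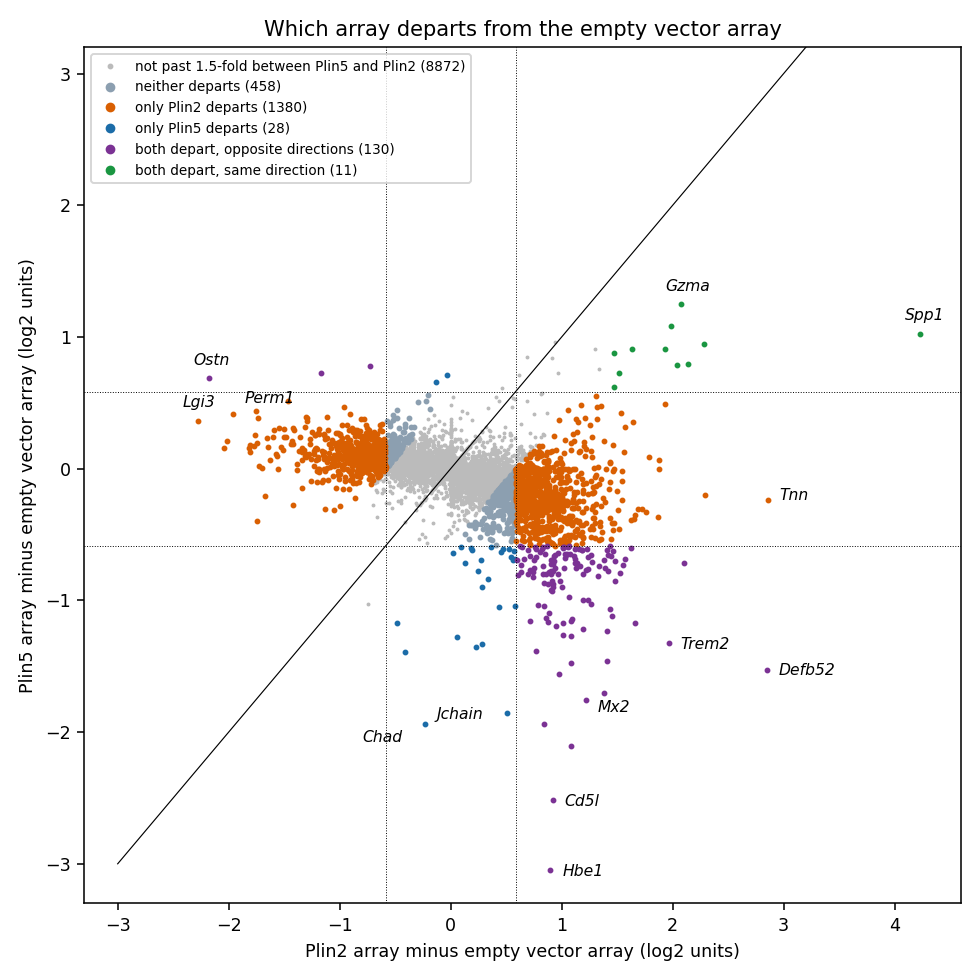
Each point is 1 of 10879 genes, with the Plin2 array minus the empty vector array on the horizontal axis and the Plin5 array minus the empty vector array on the vertical axis, both in log2 units; the solid line marks equal levels on Plin5 and Plin2, and the dotted lines mark 1.5-fold. Orange points (1380 genes, only Plin2 departs) spread along the horizontal axis, purple points (130, both depart in opposite directions) lie mostly at the lower right, blue points (28, only Plin5 departs) lie mostly below the horizontal band, and green points (11, both depart in the same direction) lie at the upper right with Spp1 furthest out.

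The 15 genes most above the Plin2 array included genes of secreted proteins, membrane channels, slow myosin and metabolism. Ostn, which encodes the muscle-secreted peptide musclin, led with 9.58, 7.40 and 10.27, a difference of 2.86. Lgi3, a secreted protein of the leucine-rich glioma-inactivated family, stood at 8.52, 6.24 and 8.88 (2.64). Perm1, a muscle regulator that acts with PGC-1 and the estrogen-related receptors, stood at 9.80, 7.83 and 10.21 (2.38). In all of these the Plin2 array was far below the other arrays and the Plin5 array highest, by 0.69 over the empty vector in Ostn. Next were Pfkfb1, a bifunctional enzyme that sets the level of a glycolysis activator (2.23), the water channel Aqp4 (2.20) and the slow myosin genes Myh7 (2.19) and Myl2 (2.12). Slc38a3, a glutamine transporter, was at 2.02, the sialyltransferase St8sia5 at 1.99, Lypd6b at 1.98, the sodium channel subunit Scn4b at 1.98, and Mlxipl, which encodes the glucose-responsive factor ChREBP, at 1.95. Asb10 (1.94), Lgi2 (1.94) and Lgi1 (1.90) completed the set. In 13 of the 15 only the Plin2 array departed from the empty vector by 1.5-fold; in Ostn and Lgi1 both arrays did, in opposite directions. The Plin2 level of Lypd6b (5.33) and Lgi1 (4.39) lay under the dim level, so the size of those differences is uncertain.

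Below the Plin2 array, 1 gene with a LOC symbol is counted but not named; in most of the other 15 genes furthest below, both arrays departed from the empty vector. The beta-defensin Defb52 stood at 7.56, 10.41 and 6.03, a difference of −4.37. Trem2, a lipid-sensing receptor of macrophages, stood at 7.80, 9.77 and 6.48 (−3.29). Mx2, an interferon-induced antiviral GTPase, stood at 10.66, 11.88 and 8.90 (−2.98). In each of these the empty vector array lay between, with the Plin2 array above it and the Plin5 array below it by more than 1.5-fold. Cd5l, a protein secreted by macrophages (−3.44), Slamf9 (−2.87), Oasl (−2.83), the lectin receptor Clec4a2 (−2.57), the macrophage adhesion receptor Adgre4 (−2.56) and the muscle fusion factor Mymk (−2.64) had the same order. So did the embryonic globin Hbe1 (−3.95) and the natural killer receptor genes Klra5 (−3.19), Ly49si1 (−3.09) and Ly49i7 (−2.78), whose family members are so alike that the probes may not separate them. Spp1, which encodes osteopontin, had another order, with 7.22, 11.45 and 8.24 (−3.21): the Plin2 and Plin5 arrays both lay above the empty vector. Tnn, which encodes the matrix protein tenascin-N, was at 5.24, 8.10 and 5.00 (−3.10) and departed on the Plin2 array alone. The lower level was under the dim level in 5 of these 15 genes, namely Hbe1, Cd5l, Klra5, Ly49si1 and Tnn, whose exact sizes and ranks are therefore uncertain.

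**Figure D2:**
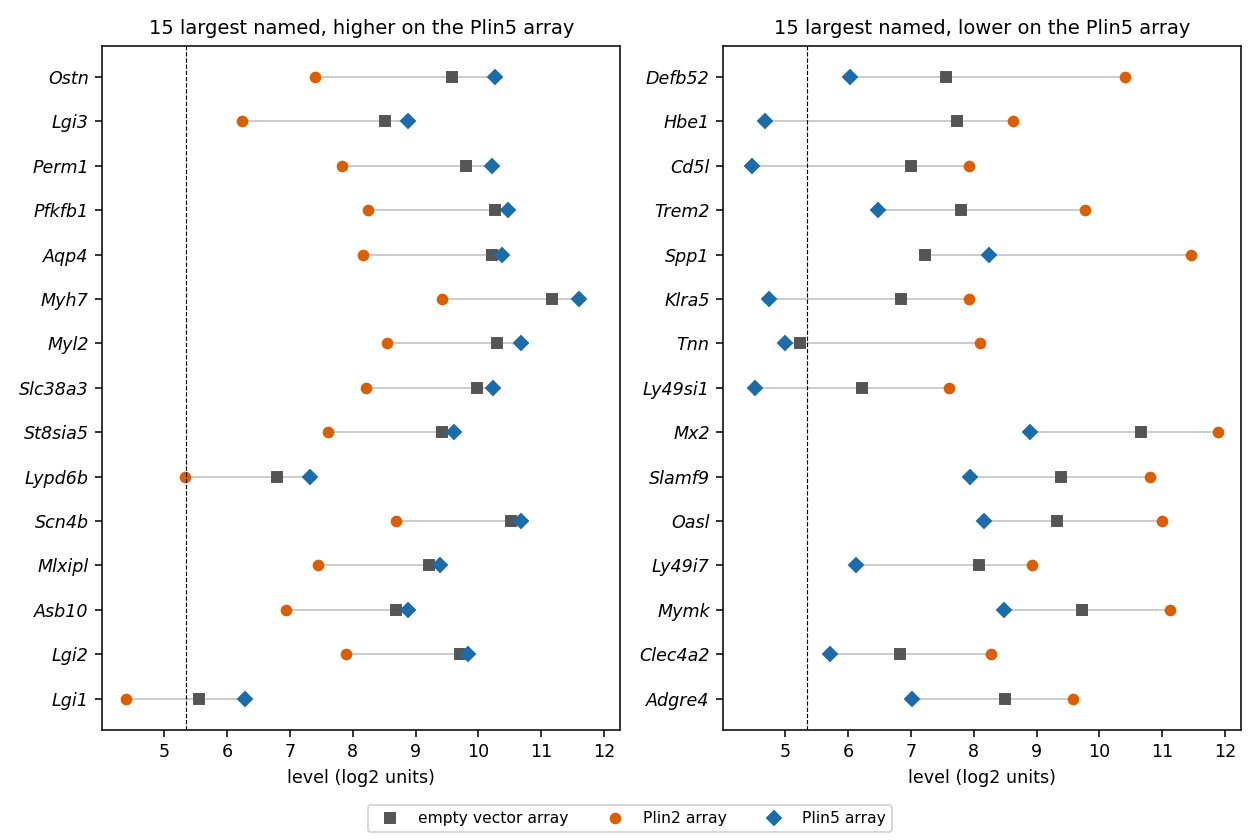
Levels on the empty vector (grey squares), Plin2 (orange circles) and Plin5 (blue diamonds) arrays, in log2 units on the horizontal axis, for the 15 named genes with the largest difference in each direction; the dashed line is the dim level of 5.34. On the left the grey squares sit closer to the blue diamonds than to the orange circles, while on the right they lie between the other symbols in every gene but Spp1.

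The few genes in which only the Plin5 array departed were almost all lower there. Chad, the cartilage and tendon matrix protein chondroadherin, stood at 9.99, 9.76 and 8.05, a difference of −1.71. Jchain, the joining chain of secreted antibodies, stood at 7.62, 8.12 and 5.76 (−2.36). Xcr1, a chemokine receptor of cross-presenting dendritic cells, stood at 8.07, 8.35 and 6.74 (−1.62). In these the Plin5 array was well below the empty vector. The Plin2 array was 0.23 below the empty vector in Chad, 0.50 above it in Jchain and 0.29 above it in Xcr1. The tetraspanin Cd37 (−1.62) and the B cell receptor modulator Cd72 (−1.58) also belong to lymphocytes, and Lair1 (−1.27) encodes an inhibitory collagen receptor of leukocytes. In Cd37 and Lair1 the Plin2 array was 0.58 above the empty vector, so they only just missed the class in which both arrays depart. Mrgprx3 (−1.48) and the phosphatase gene Ppef1 (−1.33) made up the leading 8 of 26. On the higher side there were 2 genes, the lymphoid chemokine Ccl21 at 8.10, 7.97 and 8.75 (0.79) and the olfactory receptor gene Or1f21 at 5.30, 5.27 and 6.01 (0.74), which was under the dim level on the other arrays.

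In the 11 genes that departed in the same direction, both arrays stood above the empty vector and the Plin2 array stood higher. Gzmb, a cytotoxic granule protease, was at 8.30, 10.44 and 9.09, a difference of −1.35. Ccl12, a monocyte chemokine, was at 5.72, 7.71 and 6.81 (−0.90). The granzyme gene Gzma was at 6.23, 8.30 and 7.48 (−0.82). The order was empty vector, Plin5, Plin2 in each. The interferon-induced chemokine Cxcl11 (−1.34), the succinate receptor Sucnr1 (−1.25), the ficolin gene Fcnb (−1.02) and the monocyte chemokine Ccl7 (−0.85) were also in this class.

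Markers of other cell types differed between these arrays as well, and their values, given here, apply to every group below. A marker list was summed on the linear scale, so its brightest genes set most of the sum. The 23 kept macrophage markers summed on the Plin5 array to 38.7% of their sum on the Plin2 array; against the empty vector the sums were 209% on Plin2 and 81.0% on Plin5. The 34 T and natural killer cell markers summed to 44.3% of the Plin2 array, the 13 B and plasma cell markers to 60.0%, the 10 dendritic cell markers to 76.9%, the 15 fibroblast markers to 80.6%, the 10 tendon markers to 71.9%, the 22 endothelial genes to 96.5%, the 10 adipocyte genes to 110% and the 8 mast cell markers to 143%. The 7 erythroid and globin genes summed to 169%, with 59.1% of the empty vector on Plin2 and 100.1% on Plin5. Of these 7, 3 were at least 1.5-fold higher and 1 was lower, with a median difference of 0.38. Their sum rests largely on bright members such as the transferrin receptor gene Tfrc, while the embryonic globin Hbe1 went the other way (−3.95). It is therefore no clear measure of red cells. The median difference was 0.00 for the adipocyte genes and 0.25 for the mast cell markers, so those sums rest on a few genes. Part of the lower fibroblast sum came from Ly6e and Thy1, whose specificity to fibroblasts was not tested. The 13 muscle fibre genes summed to 117%. In bulk tissue, fewer cells of a type and less RNA per cell cannot be told apart, and the part of these shifts in the results below was not tested.

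Lists of lipid storage and uptake had medians under 1.5-fold, but their shares of higher genes exceeded the 7.19% of all genes. They were also fairly bright, with median levels from 9.26 to 9.78 on the empty vector array. Among all kept genes, 8.35% of the third group by level and 14.6% of the brightest were higher, so the excess over equally bright genes is smaller and rests on few genes. Of 12 genes listed under triglyceride breakdown and its control, 3 were at least 1.5-fold higher and 0 lower (median 0.20). Of 14 synthesis genes 3 were higher and 1 lower (median 0.17). Fitm2, which promotes droplet budding from the endoplasmic reticulum, stood at 10.70, 9.40 and 10.79 (1.39). The lipase inhibitor G0s2 stood at 8.20, 7.20 and 7.92 (0.72). Both were low on the Plin2 array alone. Both count among the higher genes of the breakdown list, although neither breaks down triglyceride itself. In synthesis, the phosphatidate phosphatase Lpin1 was at 10.12, 8.89 and 10.27 (1.37) and the acyltransferases Gpam and Gpat3 were at 1.06 and 0.75, while Agpat4 was at −0.59. Fatty acid uptake and transport had 5 of 14 genes higher and 1 lower (median 0.35), led by the acyl-CoA synthetase Acsl6 at 10.02, 8.45 and 10.12 (1.67) and the cytosolic carrier Fabp3 at 12.05, 10.91 and 12.31 (1.40). The fatty acid transporter Slc27a1 went the other way at 8.44, 8.96 and 8.35 (−0.62). The muscle fibre genes had a median of 0.20 in the same comparison, and macrophage markers −1.61.

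Lists of mitochondrial oxidation all had a higher median on Plin5 than on Plin2, and the gap lay mainly on the Plin2 side. In fatty acid oxidation 20 of 23 genes were at least 1.5-fold higher and 1 was lower, against 7.19% and 11.3% of all genes. Hadh, which carries out the third step of the cycle, stood at 11.23, 10.19 and 11.50 (1.30), and Ech1, an isomerase for unsaturated fatty acids, at 10.96, 9.92 and 11.13. Against the empty vector, 18 of the 23 were 1.5-fold lower on Plin2 and 0 were 1.5-fold higher on Plin5, with the empty vector between the other arrays in 22. The exception in direction was Cpt1a, the liver form of the carnitine palmitoyltransferase, at 9.13, 9.71 and 8.96 (−0.74). In the respiratory chain, 25 of 33 complex I subunits and 18 of 37 subunits of complexes II to V were higher by 1.5-fold and 0 were lower. Ndufa5, a complex I subunit, was at 8.76, 8.07 and 9.04 (0.97), and Sdha, the catalytic subunit of succinate dehydrogenase, at 11.33, 10.75 and 11.54 (0.78). The Plin2 side made up a median of 86.4% of the complex I gaps past 1.5-fold and 82.9% of those of complexes II to V.

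Mpc2, a subunit of the mitochondrial pyruvate carrier, led the tricarboxylic acid cycle and pyruvate dehydrogenase list at 11.18, 10.25 and 11.38 (1.13), and 13 of its 19 genes were higher by 1.5-fold with 0 lower. The oxidation of branched-chain amino acids and ketone bodies had a median of 0.80, with 14 of 19 genes higher and 0 lower. Bckdhb, a subunit of the branched-chain ketoacid dehydrogenase, stood at 10.63, 9.65 and 10.83 (1.18). Aldh6a1, which acts in valine breakdown, was at 10.61, 9.77 and 10.81 (1.04), and Ppm1k, the phosphatase that activates the dehydrogenase, at 9.29, 8.55 and 9.55 (1.00). In all 3 the Plin2 array was low and the Plin5 array 0.20 to 0.25 above the empty vector. Control of pyruvate dehydrogenase and uncoupling was divided, with 5 of 9 genes higher and 2 lower by 1.5-fold (median 0.59). The phosphatase Pdp1 (0.80), the kinase Pdk4 at 12.57, 12.10 and 12.76 (0.67) and the uncoupling protein Ucp3 (0.76) were higher. The kinase Pdk3 was lower at 8.07, 8.98 and 7.87 (−1.11). Mitochondrial ribosomal proteins had 9 of 34 genes higher and 0 lower (median 0.42), led by Mrps10 (1.07) and Mrps15 (1.05).

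Among 19 regulators of the PGC-1, ERR and PPAR families, 8 were at least 1.5-fold higher and 1 was lower (median 0.44). After Perm1, Ppara, the receptor that drives fatty acid oxidation genes, stood at 8.95, 7.45 and 9.19 (1.74). The estrogen-related receptor gene Esrrg stood at 8.02, 6.91 and 8.26 (1.35), and Tfb2m, a mitochondrial transcription factor, at 9.41, 8.65 and 9.75 (1.09). The adipogenic receptor gene Pparg was lower at 7.51, 8.06 and 7.02 (−1.04), in a case where neither array departed from the empty vector by 1.5-fold. Glycolysis and glycogen genes were higher too, 13 of 26 by 1.5-fold with 0 lower, and in all 13 only the Plin2 array departed. Fbp2, the muscle fructose bisphosphatase, stood at 9.60, 7.87 and 9.61 (1.74), and Phkg1, the catalytic subunit of phosphorylase kinase, at 10.14, 8.61 and 10.30 (1.69). Ldhb, the lactate dehydrogenase subunit of oxidative tissues, was at 10.02, 9.06 and 10.49 (1.43), with the Plin5 array 0.47 above the empty vector. Insulin signalling had 6 of 19 genes higher and 3 lower (median 0.12). The insulin-responsive glucose transporter Slc2a4 was at 11.33, 10.38 and 11.42 (1.04), and the constitutive transporter Slc2a1 at 8.23, 9.50 and 8.32 (−1.18), so that the glucose transporter genes differed in opposite directions, both through the Plin2 array. In the same comparison macrophage markers had a median of −1.61, and its part in these lists was not tested.

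**Figure D3:**
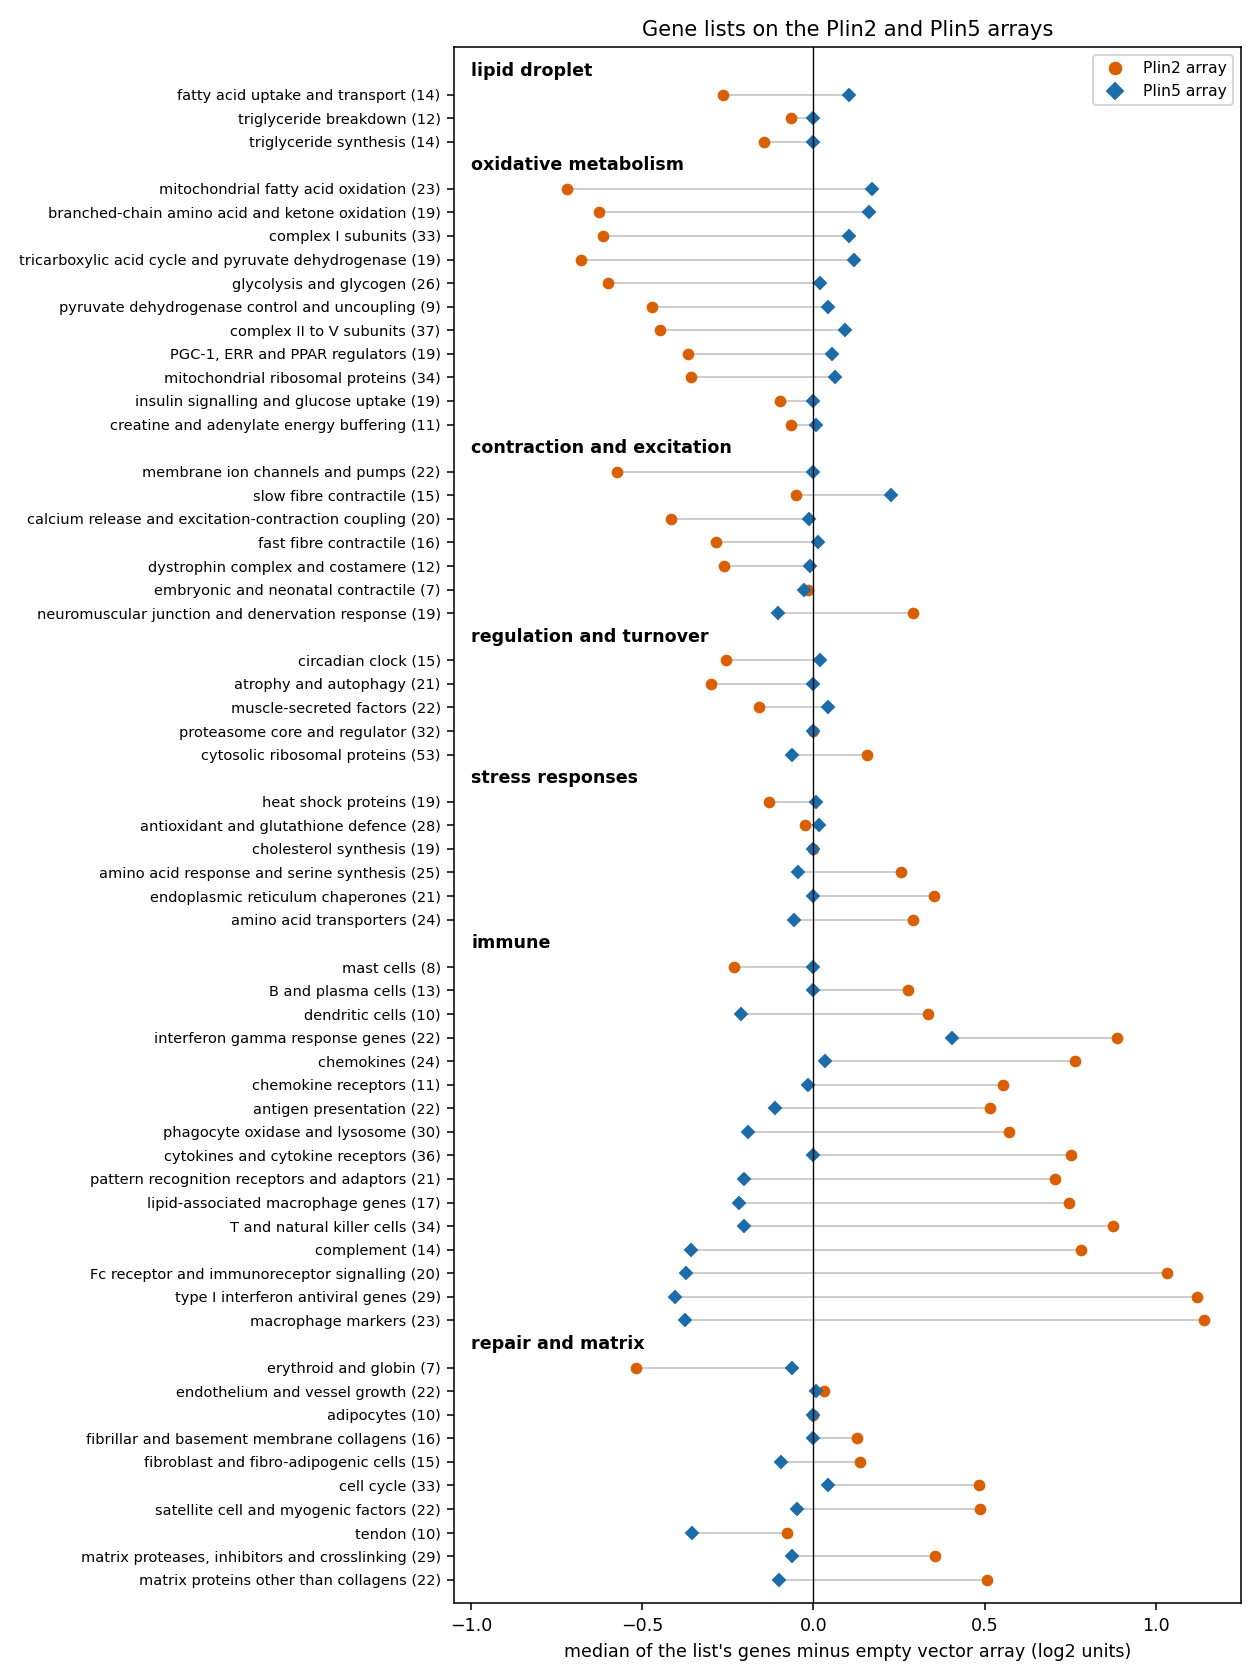
Median over the kept genes of each list (number of genes in brackets) of the Plin2 array (orange circles) and the Plin5 array (blue diamonds) minus the empty vector array, in log2 units. Orange circles lie further from 0 than blue diamonds in most lists, to the left for oxidative metabolism and to the right for immune genes. Medians of tendon genes (−0.36 on Plin5 and −0.08 on Plin2) and slow fibre genes (0.23 and −0.05) show the reverse. Even so, 6 of the 15 slow fibre genes were 1.5-fold lower than the empty vector on Plin2, and 1 was on Plin5.

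Genes of the excitable membrane were higher on Plin5 through a low Plin2 array, with the Plin5 array at the empty vector. Of 22 ion channels, pumps and water channels, 11 were at least 1.5-fold higher and 1 was lower (median 0.57), and in all 12 only the Plin2 array departed; its part of those gaps had a median of 97.8%. Clcn1, the chloride channel that stabilises the resting fibre, stood at 10.79, 9.61 and 10.77 (1.16). Kcna7, a voltage-gated potassium channel, stood at 9.71, 8.27 and 9.89 (1.63), and Scn4b at 10.52, 8.70 and 10.67 (1.98). Kcnab2, a potassium channel subunit, was the exception at 6.92, 7.59 and 6.92 (−0.67). Calcium release genes had 5 of 20 higher and 0 lower (median 0.43), among them the calcium channel subunit Cacng6 (0.82) and Jph2, which couples the surface membrane to the calcium store (0.78). Nos1, the neuronal nitric oxide synthase held at the dystrophin complex, was at 8.36, 6.76 and 8.60 (1.84), and 3 of 12 genes of that complex were higher.

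Slow and fast contractile genes both had a higher median on the Plin5 array. Myh7, the slow myosin heavy chain, stood at 11.17, 9.42 and 11.60, and Myl3, a slow light chain, at 12.51, 11.15 and 12.75 (1.60). The slow list had 6 of 15 genes higher and 1 lower (median 0.48), and its Plin2-side share (68.0%) was below that of the ion channels. Sln, which encodes the calcium pump inhibitor sarcolipin, was the exception at 12.14, 12.88 and 11.32 (−1.56), with both arrays departing in opposite directions. Fast fibre genes had 4 of 16 higher and 0 lower (median 0.30), led by Myh2 at 12.66, 11.68 and 12.90 (1.21). Of 7 developmental contractile genes 2 were lower and 1 higher (median 0.00): Tnnt2, the cardiac and embryonic troponin T, was at 9.96, 10.90 and 9.48 (−1.43), Myh3, the embryonic myosin, at 10.86, 11.65 and 10.83 (−0.82), and Myh6, the cardiac alpha myosin, at 6.51, 6.12 and 6.71 (0.59). Bright genes may be compressed on arrays, which limits what the fast list can show.

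Genes that mark denervated or regenerating fibres were lower on the Plin5 array. Of 19 genes of the neuromuscular junction and denervation response, 9 were at least 1.5-fold lower and 0 higher (median −0.46). Chrna1, the acetylcholine receptor alpha subunit, stood at 11.24, 12.37 and 10.73 (−1.64). Ncam1, an adhesion molecule, stood at 11.11, 11.93 and 10.50 (−1.43), and Chrng, the fetal receptor subunit, at 8.01, 8.56 and 7.46 (−1.09). The empty vector lay between in each, and the Plin2 side made up a median of only 58.3% of the gaps past 1.5-fold, less than in the oxidative lists. Musk, the receptor kinase that organises the junction, was at −1.02. Satellite cell and myogenic factors had 10 of 22 genes lower and 0 higher (median −0.41): Mymk stood at 9.72, 11.13 and 8.48, Myog, which drives differentiation, at 8.89, 9.88 and 8.42 (−1.46), and Myf5 at 8.25, 9.35 and 8.02 (−1.34). The growth factor Hgf was at −1.19. Macrophage marker sums on these arrays were those given above.

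Secreted and regulatory genes of muscle were mixed. Of 22 secreted factors 9 were higher and 2 lower by 1.5-fold (median 0.13). The 3 Lgi genes of the list were all higher; Lgi2 stood at 9.71, 7.90 and 9.84. Metrnl, a secreted factor of muscle and fat, was lower at 8.42, 9.39 and 8.14 (−1.25). Of 15 clock genes 13 were above 0 (median 0.33), with 2 higher and 1 lower by 1.5-fold. The repressor Nr1d1 stood at 11.08, 9.84 and 11.10 (1.25). The period gene Per1, the only clock gene below 0, stood at 8.83, 9.46 and 8.05 (−1.42). In atrophy and autophagy 8 of 21 genes were higher and 2 lower (median 0.24). The ubiquitin ligase Fbxo32 was at 11.47, 10.65 and 11.65 (1.00), the mitophagy receptor Bnip3 at 12.49, 11.83 and 12.62 (0.78), and Ddit4, a stress-induced inhibitor of mTORC1, at 8.24, 8.94 and 7.45 (−1.50). The 32 proteasome genes gave 0 past 1.5-fold in either direction, with differences from −0.31 to 0.36.

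Immune lists had a lower median on the Plin5 array, except for mast cells. Of 23 macrophage markers 20 were at least 1.5-fold lower and 0 higher, and in 8 of them both arrays departed from the empty vector in opposite directions. Ms4a7 stood at 9.37, 10.71 and 8.56 (−2.15). Siglec1, a sialic acid receptor of tissue macrophages, stood at 8.79, 10.20 and 8.17 (−2.02). Clec7a, the beta-glucan receptor dectin-1, stood at 8.68, 10.44 and 8.35 (−2.09). In the first 2 both arrays departed by 1.5-fold, while Clec7a did so on the Plin2 array alone. Genes of lipid-associated macrophages had 12 of 17 lower (median −1.05), led by Trem2 and Spp1 and then Gpnmb at 10.56, 12.00 and 9.97 (−2.03). Fc receptor and immunoreceptor signalling had 19 of 20 lower (median −1.36), with the low-affinity Fc receptor Fcgr3a at 9.39, 10.84 and 8.33 (−2.50). Complement had 11 of 14 lower and 1 higher (median −1.19): the receptor C3ar1 was at 10.05, 11.44 and 9.36 (−2.08), and Cd55, which protects host cells from complement, at 10.17, 9.56 and 10.35 (0.79). Phagocyte oxidase and lysosome genes had 17 of 30 lower and 0 higher (median −0.74), with the protease Ctss at −1.66 and the oxidase subunit Cybb at −1.60.

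The T and natural killer cell list had 26 of 34 genes lower and 0 higher (median −1.12). Gzmk stood at 6.89, 8.13 and 6.13 (−2.00), Cd8b at 7.65, 8.98 and 7.11 (−1.87), and Klrk1, the activating receptor NKG2D, at 9.67, 11.02 and 9.23 (−1.79). All had the Plin2 array highest and the Plin5 array lowest. In 9 genes of the list the empty vector was lowest instead, among them Gzma and Gzmb. B and plasma cell markers had 5 of 13 lower (median −0.36), dendritic cell markers 5 of 10 lower and 1 higher (median −0.61), and that higher gene, the lipid antigen molecule Cd1d1, stood at 9.34, 8.12 and 9.60 (1.48). Of 8 mast cell markers, 2 were higher and 1 was lower, with a median of 0.25, which is under 1.2-fold. These markers were rather dim, with a median level of 6.60 on the empty vector array. Cpa3, the mast cell carboxypeptidase, stood at 8.26, 7.06 and 8.53 (1.47), and the chymase Cma1 at 6.81, 5.91 and 6.99 (1.07), while Hpgds, a prostaglandin synthase, was at −0.65.

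Among sensors of nucleic acids and microbes, 16 of 21 were lower and 0 higher, with medians against the empty vector of 0.70 on Plin2 and −0.20 on Plin5. Tlr7, the endosomal receptor for single-stranded RNA, stood at 9.90, 11.10 and 8.90 (−2.20), and Tlr9, the receptor for unmethylated CpG DNA, at 9.01, 9.86 and 7.87 (−1.99). Aim2, the cytosolic DNA sensor, was at 5.65, 6.57 and 5.07 (−1.49), the last of these under the dim level. Cytokines and their receptors had 23 of 36 lower and 1 higher (median −0.76), led by the interleukin-7 receptor Il7r at 7.52, 8.50 and 5.96 (−2.54) and the granulocyte factor receptor Csf3r at 7.75, 9.40 and 7.40 (−2.01). Il1rn, the interleukin-1 receptor antagonist, stood at 8.32, 10.20 and 8.39 (−1.81), with the Plin5 array at the empty vector. Il15, made by muscle fibres, was the higher one, at 8.54, 8.06 and 8.68 (0.61). Antigen presentation had 12 of 22 lower and 1 higher (median −0.70), with the class II gene RT1-Da at −1.45 and the class I gene RT1-CE5 at 0.62; class I genes are near copies of each other, and their probes may cross-react.

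Interferon genes divided by type. Type I interferon induces antiviral genes through the interferon-stimulated response element, and interferon gamma, made by T and natural killer cells, induces an overlapping set of genes. All 29 kept type I antiviral genes were at least 1.5-fold lower on Plin5 than on Plin2, against 11.3% of all genes (median −1.58). The empty vector lay between the arrays in 28 of them, with medians of 1.12 for Plin2 and −0.40 for Plin5 against the empty vector; 10 departed on both arrays in opposite directions and 17 on Plin2 alone. Irf7, the factor that amplifies the response, stood at 10.72, 11.81 and 9.58 (−2.24). Oas2, a sensor of double-stranded RNA, stood at 7.65, 8.73 and 6.49 (−2.24), and Zbp1, a sensor of Z-form nucleic acid, at 9.05, 10.62 and 8.36 (−2.25).

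Of 22 interferon gamma response genes, 12 were lower and 0 higher by 1.5-fold (median −0.63), and the empty vector was the lowest array in 16. Their median was 0.89 on Plin2 and 0.41 on Plin5 against the empty vector, so the Plin5 array was above the empty vector for this list and below it for the antiviral list. Cxcl10, a chemokine for activated T cells, stood at 9.54, 11.48 and 10.04 (−1.44). Socs1, a feedback inhibitor of cytokine signalling, stood at 8.41, 9.95 and 8.84 (−1.11). Irf8, a factor of macrophages and dendritic cells, had the other order, at 9.25, 10.35 and 8.74 (−1.61). Chosen after their values were seen, the chemokine Cxcl9 stood at 9.99, 10.90 and 10.83 (−0.07, less than the 0.09 that centring adds) and the inducible nitric oxide synthase Nos2 at 6.67, 7.29 and 7.39 (0.10), so that both arrays lay above the empty vector by similar amounts in these genes. Chemokines were divided too, though they were not assigned to an interferon type. Of 24, 14 were lower and 1 higher (median −0.65), and the empty vector was lowest in 10 and between the other arrays in 7. Ccl9 stood at 8.32, 9.32 and 7.42 (−1.91) and Cxcl16, a membrane-bound chemokine of phagocytes, at 10.07, 11.30 and 9.40 (−1.90), while Ccl2, the main monocyte attractant, chosen after its values were seen, stood at 10.83, 12.30 and 11.71 (−0.59). The receptor list had 7 of 11 lower, led by Cx3cr1 at 8.02, 9.38 and 7.54 (−1.85).

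**Figure D4:**
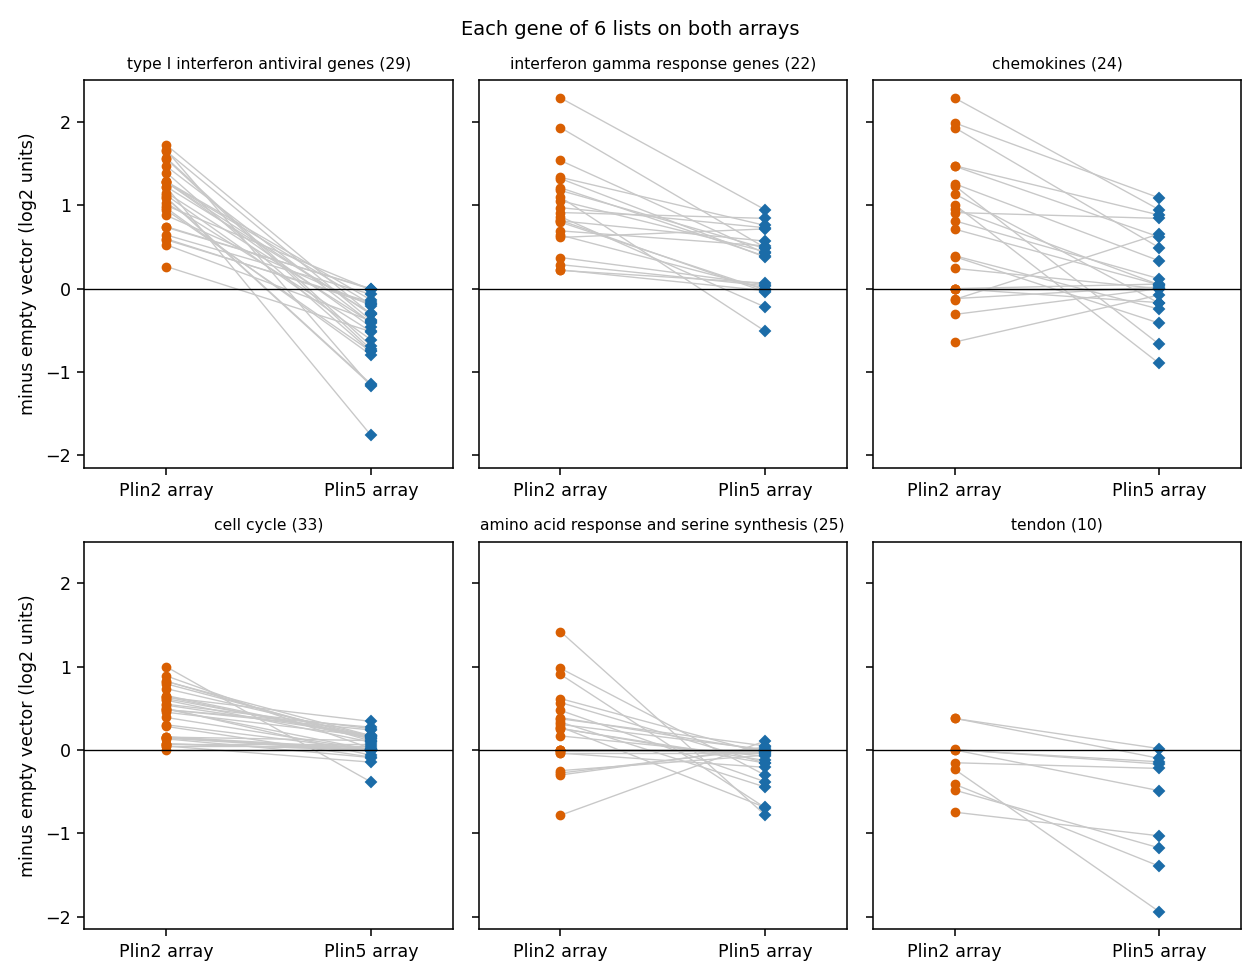
Each line joins the value of 1 gene on the Plin2 array (orange circle) and on the Plin5 array (blue diamond), both minus the empty vector array in log2 units, for 6 lists with the number of kept genes in brackets. Antiviral genes run from above 0 to at or below 0, most interferon gamma response genes stay above 0 on both arrays, cell cycle genes return to about 0 on Plin5, and the lowest tendon genes lie on the Plin5 array.

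The promoters of the antiviral genes show the element that type I interferon acts through, and a few are printed for that reason. RefSeq promoters of the rat assembly GRCr8 were searched on both strands in the 250 bases before the gene start for the core of the interferon-stimulated response element, which is GAAA, then 2 bases of any kind, then GAAA. It was found in 14 of 21 antiviral genes with a promoter in the table (66.7%), in 8 of 19 interferon gamma response genes (42.1%) and in 902 of all 27457 promoters (3.29%). By direction, it was in 72 of 991 genes at least 1.5-fold lower (7.27%), 10 of 656 higher (1.52%) and 158 of 7351 not past 1.5-fold (2.15%). The antiviral genes themselves are among the lower genes. The sequences run 5′ to 3′ on the gene's strand, with the match in capitals; a match in reverse orientation starts and ends with TTTC.
Irf7, chr1:205800058-205800117, minus strand: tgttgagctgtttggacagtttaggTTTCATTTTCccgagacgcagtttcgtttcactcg
Oasl2, chr12:47383302-47383361, minus strand: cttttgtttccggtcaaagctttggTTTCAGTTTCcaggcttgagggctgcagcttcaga
Oas1b, chr12:41395871-41395936, minus strand: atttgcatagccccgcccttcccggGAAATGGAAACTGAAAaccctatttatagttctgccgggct
Ifit3, chr1:241527257-241527316, plus strand: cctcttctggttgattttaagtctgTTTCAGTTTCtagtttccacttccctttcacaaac
Isg20, chr1:142239942-142240001, plus strand: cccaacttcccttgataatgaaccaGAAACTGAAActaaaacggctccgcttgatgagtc
Gbp2, chr2:234005671-234005726, plus strand: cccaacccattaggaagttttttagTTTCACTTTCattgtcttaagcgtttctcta

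The first 5 of these promoters belong to antiviral genes. Oasl2, an oligoadenylate synthetase-like protein, stood at 9.32, 10.87 and 8.59 (−2.29) and Oas1b, where 2 matches overlap, at 7.97, 8.94 and 7.17 (−1.76). Ifit3, which binds foreign RNA, stood at 8.88, 10.61 and 8.58 (−2.03), and the exonuclease gene Isg20 at 8.43, 9.45 and 7.91 (−1.54). In each the Plin5 array was lowest. Gbp2, a guanylate-binding protein of the interferon gamma list, carries the same letters but stood at 9.48, 10.79 and 9.85 (−0.94), with the empty vector lowest. A match is a description of these letters and not a measured binding site.

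Other elements were found in smaller shares of their lists than the interferon element was in its lists, though some shares were above that of all promoters. TNAAGGTCA, bound by estrogen-related receptors, was found in 0 of 18 fatty acid oxidation promoters and 0 of 31 of complex I. It was in 0 of 17 of the tricarboxylic acid cycle list and 1 of 32 of complexes II to V (3.12%). The share was 1% of all promoters and 0.478% of those of kept genes, so these lists are too small to show a lower share. The match was in Atp5mc3, a subunit of the ATP synthase ring at 12.89, 12.50 and 12.96 (0.46). GAGGAAGT, bound by the macrophage factor PU.1, was in 48 of 991 lower genes (4.84%), 10 of 656 higher genes (1.52%) and 164 of 7351 not past 1.5-fold (2.23%). It was in 2.04% of all promoters and in 0 of 20 macrophage markers. Among Fc receptor and immunoreceptor genes it was in 2 of 15 (13.3%), Fcgr3a and Vav1. The Fcgr3a match is printed because that gene led its list.
Fcgr3a, chr13:85782555-85782612, plus strand: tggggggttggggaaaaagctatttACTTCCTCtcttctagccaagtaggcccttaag
The capitals are GAGGAAGT in reverse orientation. CAGCTG, an E-box of myogenic factors, was in 3 of 16 satellite cell and myogenic genes (18.8%) and 11.9% of all promoters. Where no match was found, only these letters were absent from this window.

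Matrix and repair genes were lower on Plin5 in part. Of 22 matrix proteins other than collagens, 12 were at least 1.5-fold lower and 0 higher (median −0.64). After Tnn came Ccn2, a matricellular factor, at 8.37, 9.14 and 8.02 (−1.12), Thbs1, thrombospondin-1, at 9.68, 10.76 and 9.67 (−1.09), and Emilin1 (−0.99). Thbs1 on the Plin5 array was −0.01 against the empty vector. Of 16 collagens 2 were lower (median −0.18), Col12a1 at 8.83, 9.82 and 8.39 (−1.43) and Col8a1 (−0.59), a share close to that of all genes. Proteases, inhibitors and crosslinking enzymes had 12 of 29 lower (median −0.47), with the inhibitor Timp1 at 10.65, 11.94 and 10.37 (−1.57) and the macrophage elastase Mmp12 at 4.79, 6.43 and 5.14 (−1.29), where only the Plin2 level was over the dim level.

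Tendon genes departed mainly on the Plin5 side. All 10 were below the Plin2 array, 3 by 1.5-fold (median −0.42), and the empty vector was the highest array in 5. Against the empty vector the median was −0.36 on Plin5 and −0.08 on Plin2. Beside Chad, the tendon membrane protein Tnmd stood at 6.92, 6.51 and 5.52 (−0.98) and fibromodulin, Fmod, at 9.99, 9.51 and 8.82 (−0.69). The Plin2 array was below the empty vector in these as well, and the Plin5 array further below.

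The cell cycle list had 5 of 33 genes lower and 0 higher (median −0.29), near the 11.3% of all genes, although 30 of its genes were below 0. The inhibitor Cdkn1a stood at 10.59, 11.59 and 10.20 (−1.38), and Top2a, a topoisomerase of dividing cells, at 7.44, 8.26 and 7.54 (−0.72). The empty vector was lowest in 20 of the 33. Fibroblast markers had 3 of 15 lower (median −0.28), led by Ly6e at 11.06, 12.07 and 10.46 (−1.61). In Ly6e both arrays departed in opposite directions, and whether it marks fibroblasts here was not tested. Thy1, which is also in the T and natural killer cell list, stood at 8.58, 9.65 and 8.43 (−1.22). Endothelial genes had 2 higher (9.09%) and 3 lower (13.6%) of 22 (median 0.00), near the 7.19% and 11.3% of all genes. The adhesion molecules Vcam1 (−1.02) and Icam1 (−0.89) and the vessel pore protein Plvap (−1.13) were lower, and the growth factor Angpt1 was higher (0.82). Among 10 adipocyte genes 1 was lower (median 0.00). In the globin list the adult beta globin gene Hbb-b1 stood at 10.39, 9.13 and 10.46 (1.33) and the transferrin receptor Tfrc at 11.54, 10.45 and 11.73 (1.28), opposite to Hbe1 at 7.73, 8.63 and 4.68; globin genes are near copies of each other, so these values are uncertain.

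Stress and biosynthesis genes showed smaller shifts with a few large members. Of 25 genes of the amino acid response and serine synthesis, 8 were lower and 1 higher by 1.5-fold (median −0.30). Asns, asparagine synthetase, stood at 7.97, 9.39 and 7.19 (−2.20), the leucine transporter Slc7a5 at 8.94, 9.85 and 8.25 (−1.60), and Mthfd2, a mitochondrial folate enzyme, at 7.98, 8.96 and 7.68 (−1.28). All were lowest on the Plin5 array. Amino acid transporters had 10 of 24 lower and 4 higher (median −0.39), with Slc7a7 at −1.17 and Slc7a8 at −0.87 against Slc38a3 at 9.97, 8.21 and 10.23. Cytosolic ribosomal protein genes were below 0 in 49 of 53, with a median of −0.22, and 3 passed 1.5-fold, led by Rpl3 at 10.80, 11.50 and 10.64 (−0.86). These are fewer past 1.5-fold than the 11.3% of all genes, of which 4377 of 10879 were below 0. Chaperones of the endoplasmic reticulum were below 0 in 18 of 21 (median −0.38), and 2 were lower by 1.5-fold (9.52%), also under the share of all genes: Sdf2l1 stood at 7.11, 7.94 and 7.00 (−0.94), and Pdia4 was at −0.59. Hmox1, heme oxygenase 1, was the largest exception among 28 antioxidant genes (median 0.05), at 7.63, 9.07 and 7.69 (−1.38), while the mitochondrial peroxiredoxin Prdx3 was at 0.70. Heat shock proteins (median 0.19, 1 of 19 lower) and cholesterol synthesis (median 0.00, 1 higher and 1 lower of 19) did not differ as groups by 1.5-fold; Dnajb1 was at −0.90 in the former and Fdft1 at 0.88 in the latter.

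Of 59 lists with at least 5 kept genes, 17 had a median at least 1.2-fold higher on Plin5 and 25 a median at least 1.2-fold lower, against a median of 0.00 over all genes. At 1.5-fold the numbers were 6 and 15. The lists held 1158 distinct kept genes, of which 521 were past 1.5-fold in either direction, where all kept genes had 2007 (18.4%); the lists were drawn up with earlier results of these arrays known, so that excess is not independent evidence. Of the called genes, 1486 were in no list.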

How the data were processed

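RNA of 3 pools was measured on whole-transcript gene arrays, 1 array per group, so the number of arrays sets the precision. The deposited values were log2 expression levels made by the authors with RMA, per the submitters' processing notes; the log base is taken from the method and the range. Chip description, software version and genome build: not given in the sources used here. Per the labels' protocols, 100 ng of RNA with an integrity number above 8 entered each labelling.

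Of 29214 probe sets, 15310 had 1 gene symbol in the platform annotation, 323 several and 13581 none listed; 15279 were found in the RefSeq table (GRCr8), with 0 symbols updated. The brightest probe set stood for each of 14506 genes (527 had more than 1), and 3627 dim genes were left out. Values were subtracted as deposited, with no test. Genes past 1.5-fold were counted, and a departure from the empty vector was 1.5-fold too. The Plin2-side share is empty vector minus Plin2, divided by Plin5 minus Plin2.

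The members and the 61 lists were chosen with earlier results of these data known; 61 genes are in more than 1 list, and 3 list symbols were updated. Named genes were the perilipins, the 15 largest each way, the 8 largest of each departure class, and per list up to 4 leading members in the direction of its median (6 where over 15 passed 1.5-fold) with the furthest in the other direction past 1.5-fold; symbols such as LOC or RGD were counted but not named. The script that sorts genes by departure was checked on simulated arrays. Promoter motifs used the RefSeq promoter table. Protein sequences of the perilipins are not printed. Alternatives covered fold thresholds, the dim filter, median-centring, quantile normalization, loess against level, averaged probe sets and list means; after seeing the data, lists without equal genes and loess for single genes were added. The work used pandas 2.3.3, numpy 2.4.6, statsmodels 0.14.6 and matplotlib 3.10.9 under Python 3.11.15.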

Additional observations from a re-analysis of the deposited data

How the results depend on the processing

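No paired analysis was possible because each group had 1 array. For the same reason no replicate could be left out, and signal near the dim level limits small and dim differences. With a 2-fold threshold 215 genes were higher and 562 lower, and with 1.2-fold 1803 and 2397. With departures from the empty vector set at 2-fold, 391 genes departed on Plin2 alone, 18 on both arrays in opposite directions, 3 in the same direction and 1574 on neither. At 1.2-fold 599 departed in opposite directions, 35 in the same direction and 0 on neither. With the dim filter at the median gene, 12 departed on Plin5 alone. Quantile normalization gave 824 higher and 1126 lower, and loess 772 and 1212. By their mean, B and plasma cell markers stood at −0.67, secreted factors at 0.47, pyruvate dehydrogenase control at 0.16 and globins at 0.02. Secreted factors stood at 0.61 with the dim filter at the median gene, and B and plasma cell markers at −0.70 without equal genes. Of 300 named genes, Plin1 and Plin3, equal as deposited, took a sign under median-centring, quantile normalization and loess, and Car3 (0.13) changed sign under loess; the others kept theirs there and with averaged probe sets. Of the values past their threshold, 0 reversed under the alternatives run.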

Other observations

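Probe sets with no gene in the platform annotation differed as well. Of 7160 such probe sets past the dim level, 468 were at least 1.5-fold higher on the Plin5 array (6.54%) and 415 lower (5.8%), so the lower side did not outnumber the higher one as it did for named genes.

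Other probe sets of the same gene were available for 63 of the genes past 1.5-fold. Of these 77 further probe sets, 72 had the same sign, 4 were equal on both arrays and 1 had the opposite sign, and 51 also passed 1.5-fold in the same direction. None (0) passed it in the opposite direction. Of 359 genes not past 1.5-fold that had another probe set over the dim level, 18 had such a probe set past it. The largest, chosen after its values were seen, was of Ldha, the muscle lactate dehydrogenase subunit. That probe set stood at 13.66, 8.09 and 13.68 on the empty vector, Plin2 and Plin5 arrays (5.59), more than any difference of a kept probe set. The kept probe set of Ldha stood at 13.31, 13.16 and 13.25 (0.09), so the probe sets of this gene disagree.

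Genes in which neither array departed from the empty vector by 1.5-fold, although they differed from each other by that amount, were led by Chrng and by Gm2a, a lysosomal activator protein, at 12.34, 12.90 and 11.82 on the empty vector, Plin2 and Plin5 arrays (−1.08). Plekhn1 (−1.04), Pparg (−1.04), the phagocyte inhibitory receptor Sirpa (−1.02), the cytokine Tnfsf13 (−1.02), Sipa1l1 and Fgd2 followed. The class rule itself places both arrays of genes with so large a gap on opposite sides of the empty vector by similar amounts, so that order is not a separate result.

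Around the dim filter, Tfcp2l1, Gnat1 and Nell1 lay just outside with a mean level of 5.34, and Ly6g6f (5.34) and Slc12a3 (5.35) just inside.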
